A study of Mus musculus with 20 samples.

Results

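Mammary glands of placebo-treated mice that later had a mammary tumor were compared with glands of placebo-treated mice that had none. All arrays labelled as placebo were taken, 10 of the 20 in the series, and split by the outcome in their labels into 7 animals with a later tumor (numbers 1, 2, 4, 7, 8, 9 and 10) and 3 without (numbers 3, 5 and 6). Every animal of both groups was a female FVB/N mouse heterozygous for the TgN(Nrl-tgfalpha)29EPS transgene of line 1372-1, in which the Nrl promoter drives transforming growth factor alpha (TGFα). All 10 received a drug-free carrier implant at 8.5 weeks of age, gave up 1 nontumorous number 4 gland at 20.5 to 21 weeks, 4 weeks after the treatment ended, and were then observed to at most 2 years of age. The other 10 animals of the series, 3 with a later tumor and 7 without, had the same transgene, strain and schedule with an implant releasing 5 mg tamoxifen. They served to show where a placebo difference was also seen. They also entered the model of all 4 groups, the choice of probe sets and the centring of list means. The model is 1 transgenic line without a nontransgenic control group, and each animal gave 1 array. Animals are named by their placebo replicate number, and levels are log2 RMA values, so that a difference of 1 is a doubling.

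TGFα is a ligand of the epidermal growth factor (EGF) receptor, and in the mammary gland it drives growth of the epithelium. That epithelium is a bilayer of luminal cells, among them progenitors and hormone-sensing cells, on a layer of contractile basal cells, and it lies in a fat pad with vessels, fibroblasts and immune cells. Prolactin, acting through Jak2 and the transcription factor Stat5, turns luminal cells towards milk secretion. Caseins are the major milk proteins.

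The labelled tissue was checked against its markers. All 18 pan-epithelial markers with a probe set passed the filter on dim genes, and Adipoq, the adipocyte hormone adiponectin, lay between 13.79 and 14.21 on all 10 arrays. Array medians lay between 6.82 and 6.89, and pairwise correlations of the 10 arrays between 0.979 and 0.996. On the first principal component, with 45.9% of the variance, animals 8 and 7 stood apart at -37.38 and -25.29, while the other 8 ran from -4.66 to 18.91 and the 3 animals without a tumor held the highest places. The number of arrays, above all the 3 without a tumor, limits the precision of every value, and p-values measure the spread between these animals.

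No gene passed the test between the outcomes. Of 12261 genes tested, limma with Benjamini-Hochberg adjustment called 0, or 0%, at an adjusted p under 0.05. The smallest adjusted p in that limma fit was 0.0880, for Csn1s1. An unadjusted p under 0.05 was found for 490 genes higher with a later tumor (4% of those tested) and 901 lower (7.35%). The groups did not overlap for 251 genes higher (2.05%) and 325 lower (2.65%). A model of all 4 groups of the 20 animals, which pools their spread, called 1 gene, Csn1s1, at a limma adjusted p of 0.0039, with 1750 genes at an unadjusted p under 0.05. Large differences lay on one side: 62 genes were higher by at least 1 with a later tumor and 9 lower, and 6 were higher by at least 2 against 0 lower. Gene lists are described below by how many members reached an unadjusted p under 0.05 and by their median difference, against a median of 0.0018 over all genes tested. None of these members passed the adjusted test. Their counts with animals left out stand against shares of all genes tested at that p. Higher were 1.65%, 2.53%, 4.14%, 3.47% and 4.51% without animals 5, 6, 3, 7 and 8. Lower were 5.36%, 6.83% and 4.02% without animals 5, 6 and 3. Without animals 7, 8 and 9, 4.54% were higher and 3.88% lower.

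The strongest difference was in milk protein genes. The plot of 8 genes by animal shows Csn1s1, which encodes alpha-S1 casein, at 10.89 to 13.72 with a median of 12.76 in the animals with a later tumor, against 7.90, 6.52 and 8.19 in animals 3, 5 and 6. Every animal with a later tumor was above every animal without, and the gap of 2.70 was the widest of all genes tested. The difference was 5.03 ± 0.63 (SE), or 32.6-fold, with a 95% interval of 3.63 to 6.42.

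**Figure D1:**
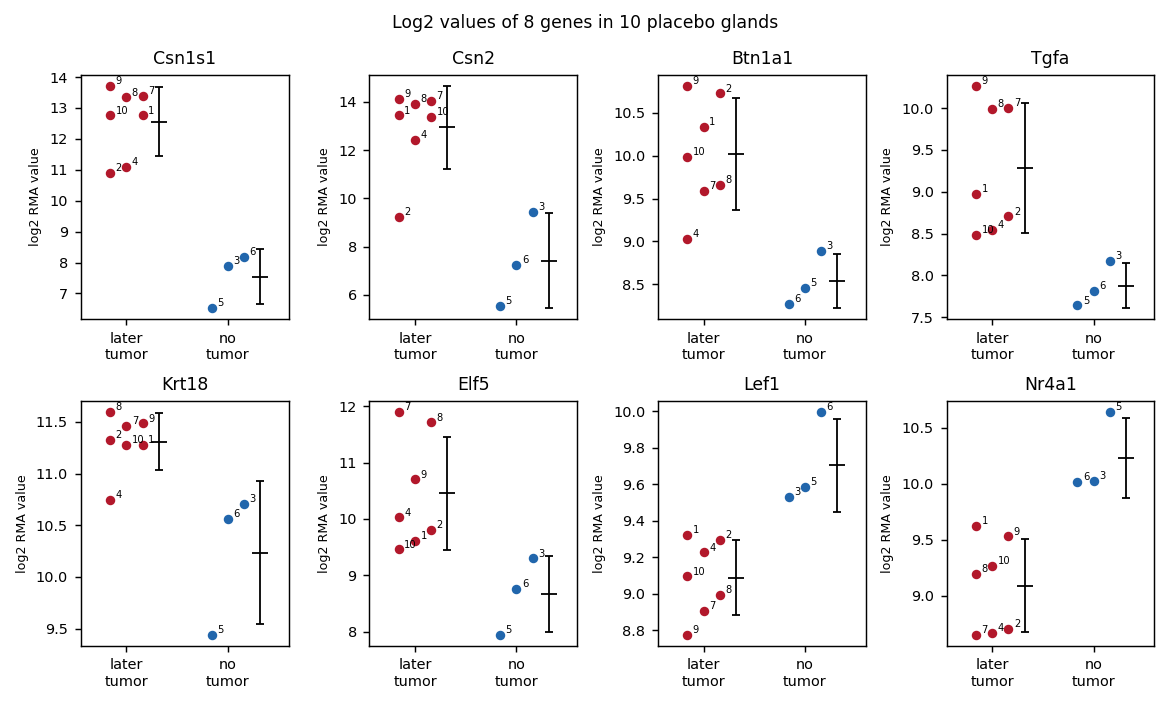
Log2 RMA values of 8 genes in the 10 placebo glands, by later outcome; each point is 1 animal with its number, and the black bar is the group mean with its SD (n = 7 and n = 3). Csn1s1, Btn1a1, Tgfa, Krt18 and Elf5 were higher and Lef1 and Nr4a1 lower in all 7 animals with a later tumor than in any of the 3 without, while Csn2 of animal 2 (9.23) lay below that of animal 3 (9.45).

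Csn2, beta casein, ranged from 9.23 to 14.13 with a median of 13.44 in animals with a later tumor, and was 9.45, 5.53 and 7.26 in those without. The groups overlapped through animal 2, the lowest of the animals with a tumor. The difference was 5.53 ± 1.06, and a second probe set gave 5.01. Csn1s2a, an alpha-S2 casein, ranged from 7.51 to 13.97 with a median of 12.71, against 7.79, 5.08 and 5.49. Here too animal 2 lay within the range of the animals without a tumor, and the difference was 5.95 ± 1.23. In the limma fit Csn2 and Csn1s2a had adjusted p-values of 0.347, and without animal 2 all 3 caseins passed at an adjusted p of 0.0189.

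The 250 bases before the start sites of the 2 casein genes with the smallest p are shown because prolactin signalling reaches caseins through Stat5, whose core motif TTCNNNGAA is in capitals. They come from RefSeq, build GRCm38.p6: Csn1s1 at chr5:87665958-87666207 on the plus strand and Csn2 at chr5:87699426-87699675 on the minus strand.
Csn1s1: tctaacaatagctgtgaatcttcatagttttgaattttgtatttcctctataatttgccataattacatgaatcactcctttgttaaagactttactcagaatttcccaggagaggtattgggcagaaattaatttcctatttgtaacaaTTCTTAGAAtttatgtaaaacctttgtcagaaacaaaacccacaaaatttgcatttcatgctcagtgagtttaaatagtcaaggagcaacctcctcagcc
Csn2: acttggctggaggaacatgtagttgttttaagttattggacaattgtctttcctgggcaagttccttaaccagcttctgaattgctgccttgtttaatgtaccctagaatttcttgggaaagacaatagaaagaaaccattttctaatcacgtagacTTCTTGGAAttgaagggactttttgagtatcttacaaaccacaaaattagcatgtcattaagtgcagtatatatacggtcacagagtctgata
Each held 1 match, which begins 100 bases before the start in Csn1s1 and 93 bases before it in Csn2. The motif is its own reverse complement, so that 1 search covers both strands. Of 32851 RefSeq promoters cut to the same length, 2306 (7.02%) held it. The same stretch of Csn1s2a held no match to these letters. A match describes the sequence only.

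Of the 15 milk protein and milk fat globule genes tested, 12 were higher and 3 lower with a later tumor, and 10 reached an unadjusted p under 0.05, all higher, with a median of 1.30. Leaving out each animal in turn gave 8 to 10 such members. Btn1a1, butyrophilin of the milk fat globule membrane, ranged from 9.03 to 10.82 with a median of 9.98 against 8.89, 8.45 and 8.27, without overlap, a difference of 1.48 ± 0.35. Muc1, a mucin of the same membrane, was 6.99 to 7.84 against 6.47 in animal 3 and 6.60 in animals 5 and 6, and differed by 0.81 ± 0.20. Wap, the whey acidic protein, was uneven. It stood at 13.93 in animal 9 and 11.16 in animal 10, between 6.76 and 9.16 in the other 5 animals with a later tumor, and at 6.68, 6.84 and 6.66 without. Its groups overlapped, and its difference of 2.26 ± 1.37 had an unadjusted p of 0.127 in limma. Muc1 and Wap lay under the filter level of 6.85 in all 3 animals without a tumor. Both thus passed the filter only through animals with a later tumor, and their differences are no separate support.

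Upstream of the milk genes, 13 genes of prolactin, Jak2 and Stat5 signalling were tested. Of these, 9 were higher and 4 lower, with a median of 0.13, and 2 reached an unadjusted p under 0.05. Elf5, the transcription factor of alveolar luminal cells, was 9.46 to 11.90 with a median of 10.03, against 9.30, 7.95 and 8.76. The groups did not overlap and differed by 1.79 ± 0.55, while a second Elf5 probe set gave 0.61. Gata3, a luminal transcription factor, differed by 0.73 ± 0.31 with overlap. Stat5a itself was higher by 0.24 ± 0.13 and Socs2, a target and inhibitor of the pathway, by 0.48 ± 0.25, both with overlapping groups. The prolactin receptor gene Prlr is not analysed here.

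Epithelial markers were higher with a later tumor across cell layers, as the plot of list members shows. Of 18 pan-epithelial markers, 17 were higher and 14 of these reached an unadjusted p under 0.05, with a median of 0.88, and 10 did not overlap between groups. Krt18, a keratin of luminal cells, ranged from 10.75 to 11.60 with a median of 11.33 against 10.70, 9.44 and 10.56, and differed by 1.07 ± 0.25. Animal 5 was the low one, and the gap between the groups was 0.04. Krt8, its partner keratin, differed by 1.33 ± 0.34, and Epcam, an adhesion protein of epithelia, by 1.30 ± 0.33 with a gap of 0.25. A second Epcam probe set gave 0.31. Without animal 5, 7 of the 18 markers reached an unadjusted p under 0.05, against 1.65% of all genes higher. Without animals 7, 8 and 9, the 3 lowest on the first principal component, 13 did, with a median of 0.52. In that setting 4.54% of all genes were higher at that p. In whole glands, fewer cells of a type and less RNA per cell cannot be told apart.

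**Figure D2:**
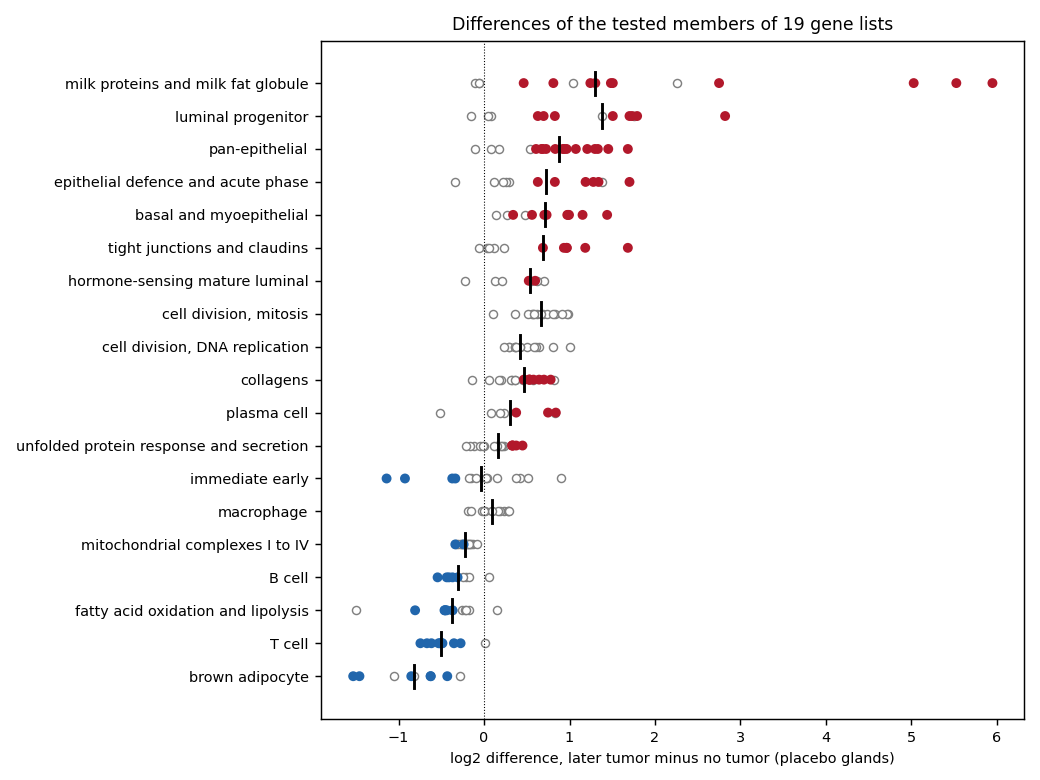
Log2 difference (later tumor minus no tumor, placebo glands) of each tested member of 19 gene lists; filled points had an unadjusted limma p under 0.05 (red higher, blue lower), open points did not, and the black bar is the list's median. Medians ran from 1.38 for luminal progenitor markers to -0.81 for brown adipocyte genes, and none of the members passed the adjusted test.

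Among luminal progenitor markers, 12 of 13 were higher and 8 reached an unadjusted p under 0.05, with a median of 1.38, and 5 did so without animal 5. Wfdc18, a secreted protease-inhibitor-like protein, was 9.97 to 13.56 with a median of 11.55 against 9.92, 8.55 and 8.54, without overlap, and differed by 2.82 ± 0.78. Plet1, a surface marker of luminal progenitors, differed by 1.73 ± 0.51, while its other probe sets gave 1.55 and 0.12. Csn3, kappa casein, which also stands on the milk list, differed by 1.51 ± 0.39, with overlap through animal 4 at 11.86 and animal 3 at 12.09. Kit, the stem cell factor receptor, was higher by 0.70 ± 0.30 with overlap.

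All 12 basal and myoepithelial markers were higher, with a median of 0.72, and 9 of them did not overlap between groups. The same number, 9, reached an unadjusted p under 0.05, and 3 did so without animal 5. Krt14, a basal keratin, was 8.03 to 10.01 with a median of 8.46 against 7.76, 7.27 and 7.46, and differed by 1.15 ± 0.40. A second Krt14 probe set gave 1.05 and the last, dim on all placebo arrays, -0.06. Oxtr, the oxytocin receptor of the contractile cells, differed by 0.99 ± 0.22 and Snai2 by 0.71 ± 0.19, each without overlap. Second probe sets gave 0.21 for Oxtr and 0.42 for Snai2. Cnn1, a calponin of contractile cells, differed by 0.73 ± 0.21 and Trp63, the basal transcription factor p63, by 1.44 ± 0.49, also without overlap. Trp63 was above the filter level on 4 arrays, all of animals with a later tumor. It was thus tested only through that group, though it counts among the 9 without overlap. Its other probe sets gave 0.25, 0.23 and 0.17.

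Of 8 hormone-sensing luminal markers tested, 7 were higher and 2 reached an unadjusted p under 0.05, with a median of 0.54 and no member without overlap. The count was 0 without animal 5 and 4 without animal 7. The 2 in the full set were Foxa1, a partner of the oestrogen receptor, higher by 0.60 ± 0.24, and Wnt4, a progesterone target, by 0.52 ± 0.22. Esr1, the oestrogen receptor, was 9.72 to 10.72 against 9.99, 10.10 and 9.85 and differed by 0.13 ± 0.21. Pgr, the progesterone receptor, was 7.91 to 9.59 against 8.17, 7.82 and 8.07 and differed by 0.70 ± 0.36. Its groups overlapped, with animals 10 and 1 highest at 9.59 and 9.43.

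Of the EGF receptor ligands, 3 were tested. Tgfa was 8.49 to 10.27 with a median of 8.98 in animals with a later tumor, and 8.17, 7.64 and 7.82 in those without. The groups did not overlap, and animals 7, 8 and 9 were the highest, from 9.99 upwards. The difference was 1.41 ± 0.41, with a limma adjusted p of 0.347. With the mean of the pan-epithelial markers as a covariate it was 0.24, at a limma adjusted p of 0.88. The labels do not say whether this probe set reads the transgene's transcript, and the 2 other Tgfa probe sets gave 0.21 and -0.06. The ligands Btc, betacellulin, and Nrg4, a neuregulin, differed by -0.17 ± 0.12 and -0.10 ± 0.20. The ligand gene Areg is not analysed here.

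Among 8 EGF receptors and their inhibitors, 4 were higher and 4 lower, and 1 reached an unadjusted p under 0.05. Egfr, the receptor of TGFα, was 9.22 to 9.58 against 9.41, 9.41 and 9.37, and differed by -0.01 ± 0.07 with a 95% interval of -0.18 to 0.15, a sign that turned under other settings. That interval covers 1 probe set. Other Egfr probe sets gave 0.30, 0.19, 0.11 and 0.16, and those dim on all placebo arrays 0.13 and -0.01. The one at 0.30 was slightly brighter on placebo arrays than the one used, at 9.42 against 9.39. Erbb3, a receptor with little kinase activity of its own, was higher by 0.76 ± 0.30, and Erbb2, its partner, by 0.29 ± 0.14, both with overlap. Of 12 genes that respond to the ERK kinases downstream, 8 were higher with a median of 0.12. Phlda1 reached an unadjusted p under 0.05, at 1.21 ± 0.52, and Ccnd1, cyclin D1, was higher by 0.74 ± 0.42. Animals 7 and 8 were highest for both.

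Genes of secreted defence proteins and of cell junctions were also mostly higher with a later tumor. Of 12 epithelial defence and acute phase genes, 11 were higher and 6 reached an unadjusted p under 0.05, with a median of 0.73, and 3 did so without animal 5. Lcn2, Ltf, Lbp and Cd14 of this list are also luminal progenitor markers, so the lists are not separate. Lcn2, the iron-trapping lipocalin 2 that also stands on the luminal progenitor list, was 10.38 to 12.38 with a median of 11.22 against 10.31, 8.74 and 9.27, without overlap, a difference of 1.70 ± 0.42. Slpi, a protease inhibitor, differed by 1.28 ± 0.41, and Chil1, a chitinase-like protein, by 1.34 ± 0.36. Of 11 claudin and tight junction genes, 10 were higher and 6 reached an unadjusted p under 0.05, and 5 did not overlap. That p was reached by 2, 3 and 3 without animals 5, 3 and 6. Cldn3, Cldn4 and Cldn7 of this list are also pan-epithelial markers, and so part of the mean used as a covariate. Cldn7, a claudin that also counts among the pan-epithelial markers, was 7.85 to 10.16 against 7.44, 6.68 and 7.08, a difference of 1.68 ± 0.52 and, after Csn1s1, the next widest gap of all genes, at 0.41. Kcnk1, a potassium channel, and Serpinb5, the serpin maspin, completed the 5 widest gaps on the higher side with Muc1. Kcnk1 and Serpinb5 differed by 1.28 ± 0.40 and 0.86 ± 0.28, and Muc1, as said above, passed the filter only through animals with a later tumor.

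Of 18 genes of the unfolded protein response and secretion, 13 were higher and 5 reached an unadjusted p under 0.05, with a median of 0.17. Only 2 did so without animal 5, and 2 without animal 6. Calr, the calcium-binding chaperone calreticulin, was 12.43 to 12.71 against 12.35, 12.18 and 12.16, without overlap, a small difference of 0.33 ± 0.07. Xbp1, a transcription factor of secretory cells, differed by 0.38 ± 0.12 with overlap.

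The pan-epithelial list mean moved with the outcome as these groups did. This mean, taken over the list's log2 values after each gene was centred on its mean over all 20 arrays, was 0.08 to 1.08 in animals with a later tumor, highest in animals 7 and 8, and -0.69 to -0.09 in those without. It did not overlap between the outcomes, so what goes with this mean and with the outcome cannot be fully told apart. Values under this covariate, here and elsewhere, carry that limit. With that mean as a covariate, unadjusted p-values under 0.05 were left for 4 of 15 milk genes, 0 of 13 luminal progenitor, 1 of 12 basal, 3 of 12 defence genes, 1 of 8 hormone-sensing genes, 0 of 18 genes of the unfolded protein response and 1 of 11 tight junction genes, the last of these lower. Of all genes tested, 2.34% were higher and 2.55% lower at that p in this fit. The medians were then 0.44 for milk (14 of 15 higher), 0.42 for defence (12 of 12), 0.31 for luminal progenitor (10 of 13) and 0.34 for hormone-sensing genes (5 of 8). They were 0.02 for the unfolded protein response (11 of 18 higher), -0.04 for basal (5 of 12) and -0.18 for tight junction genes (2 of 11), against -0.03 over all genes tested. Differences between the lists were not tested. Without animals 7, 8 and 9, 4.54% of all genes tested were higher at an unadjusted p under 0.05. Counts of members higher at that p were then 10 for milk, 8 for luminal progenitor, 9 for basal, 7 for defence and 7 for tight junction genes. The part of epithelial content in the milk gene difference was not tested beyond this covariate.

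Cell division genes were uneven among the animals with a later tumor. All 15 mitosis genes and all 14 DNA replication genes tested were higher, with medians of 0.66 and 0.42, yet 0 of either list reached an unadjusted p under 0.05. Mki67, the proliferation marker Ki-67, was 10.77 in animal 8, 7.07 to 8.71 in the other 6 with a median over the 7 of 7.88, and 7.76, 7.29 and 6.92 without a tumor. The groups overlapped, and the difference was 0.98 ± 0.64. The mitosis list mean was 2.35 in animal 8 against at most 0.41 in any other animal. Without animal 8 the medians were 0.32 and 0.20, and 2 mitosis and 3 replication genes reached an unadjusted p under 0.05. With the pan-epithelial mean as a covariate 14 of 15 mitosis and 14 of 14 replication genes were lower, with medians of -0.63 and -0.52. Of either list 0 reached that p in limma. That mean was highest in animals 7 and 8 and did not overlap between the outcomes. The 2 can thus not be fully told apart in this fit.

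**Figure D3:**
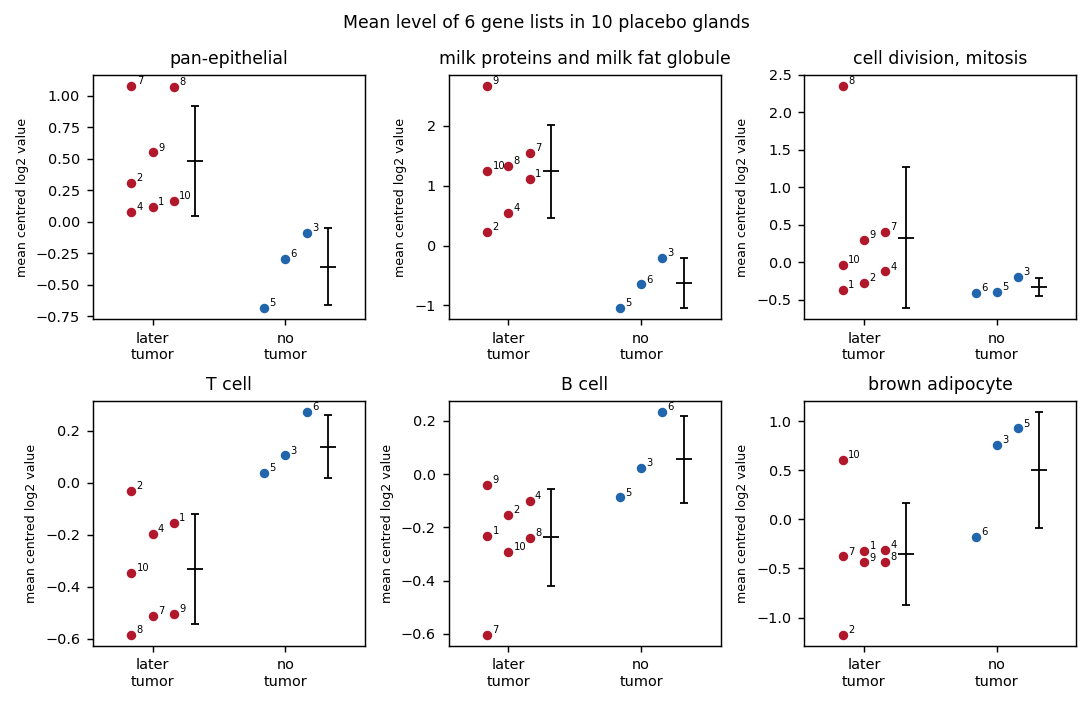
Mean of the centred log2 values of 6 gene lists in each of the 10 placebo glands, by later outcome; each point is 1 animal with its number, and the black bar is the group mean with its SD (n = 7 and n = 3). Pan-epithelial and milk means were higher and T cell means lower in all 7 animals with a later tumor than in any of the 3 without, and animal 8 stood at 2.35 for mitosis genes.

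Of 19 collagen genes, 18 were higher and 8 reached an unadjusted p under 0.05, with a median of 0.47, but none was without overlap. Animal 2 was low for these genes: without it 14 reached an unadjusted p under 0.05 and 11 did not overlap, while 1 and 5 reached that p without animals 5 and 6. Of all 12261 genes, 4.51% were higher at that p and 390 higher without overlap when animal 2 was left out. Col6a3, a chain of collagen VI, was 10.70 to 11.63 with a median of 11.48 against 10.86, 10.61 and 10.93, a difference of 0.58 ± 0.18. Col1a2, a chain of collagen I, differed by 0.53 ± 0.18 and Col16a1 by 0.70 ± 0.23. Without animals 7, 8 and 9 the count of collagen genes at that p was 3. With the pan-epithelial mean as a covariate it was 0, with 11 of 19 higher and a median of 0.07. In the tamoxifen animals the median of the collagen list was -0.11.

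T cell genes were lower with a later tumor. Of 11 tested, 10 were lower and all 10 reached an unadjusted p under 0.05, with a median of -0.50, and 6 did not overlap, or 10 without animal 2. Of all 12261 genes, 520 were lower without overlap when animal 2 was left out. Lef1, a transcription factor of naive T cells, was 8.78 to 9.32 with a median of 9.09 against 9.53, 9.58 and 10.00, a difference of -0.62 ± 0.14. Ccr7, the receptor that brings lymphocytes to lymph nodes, was 8.69 to 9.42 against 9.75, 9.58 and 9.91, also without overlap, a difference of -0.67 ± 0.17. Cd28, a costimulatory receptor, differed by -0.52 ± 0.13, and Cd3g and Cd3e, chains of the T cell receptor complex, by -0.49 ± 0.12 and -0.27 ± 0.10. Leaving out each animal in turn kept 9 to 10 members at an unadjusted p under 0.05, and leaving out animals 7, 8 and 9 kept 8. With the pan-epithelial mean as a covariate it was 0, with a median of -0.24.

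B cell genes also lay lower, with less separation. Of 9 tested, 8 were lower and 5 reached an unadjusted p under 0.05, with a median of -0.31, but without animal 6, the highest, 1 did. Fcer2a, the IgE receptor CD23, was 8.85 to 9.42 against 9.64, 9.44 and 9.84, a difference of -0.54 ± 0.13. Cd79b and Cd79a, the signalling chains of the B cell receptor, differed by -0.41 ± 0.13 and -0.44 ± 0.14, with overlap. Plasma cell genes lay on the other side, with 7 of 8 higher and 3 at an unadjusted p under 0.05, and 1 without animal 5. Jchain, the joining chain of secreted antibodies, was higher by 0.84 ± 0.29 and Igha, the IgA heavy chain, by 0.75 ± 0.26, both with overlap. Xbp1 is the remaining one of these 3. With the pan-epithelial mean as a covariate 0 genes of either list reached that p in limma, with medians of -0.13 for B cell and 0.11 for plasma cell genes. The labels do not say whether the lymph node of the number 4 gland was removed, and its part in the lymphocyte values was not tested.

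Chemokines went both ways, with 3 of 17 higher and 3 lower at an unadjusted p under 0.05. Cxcl14, made by many epithelia, was 9.44 to 9.87 with a median of 9.52 against 9.17, 8.99 and 9.08, without overlap, a difference of 0.52 ± 0.11. Ccl22, a dendritic cell chemokine that attracts regulatory T cells, was 8.14 to 8.73 with a median of 8.49 against 9.33, 9.52 and 8.79, a difference of -0.78 ± 0.17. Cxcl15 was higher by 1.19 ± 0.43, and Cxcl13, which draws B cells to follicles, differed by -0.45 ± 0.19, both with overlap. Of 13 macrophage genes 0 reached an unadjusted p under 0.05 in limma. At that level 4 were higher without animal 8 and 5 without animals 7 and 8, where 4.51% and 5.11% of all genes were. With the pan-epithelial mean as a covariate 12 of 13 were higher, 4 at that level. Their median was then 0.61, against 0.10 without the covariate.

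Fat-burning genes lay lower with a later tumor, but the animals without a tumor disagreed among themselves. All 9 brown adipocyte genes were lower, 6 at an unadjusted p under 0.05, with a median of -0.81. None was without overlap, but 4 were when animal 6 was left out and 6 when animal 10 was. In those settings 740 and 576 of all 12261 genes were lower without overlap. Ppargc1a, a coactivator of mitochondrial and thermogenic genes, was 7.83 to 9.13 with a median of 8.43 against 10.67 and 10.56 in animals 3 and 5 but 8.21 in animal 6. Dio2, which activates thyroid hormone, had the same split, at 6.91 to 8.54 against 10.24, 10.07 and 7.59. The differences were -1.46 ± 0.47 and -1.53 ± 0.50, and 2 members of the list reached an unadjusted p under 0.05 without animal 3 and 0 without animal 5. Without animals 7, 8 and 9 it was 1, and with the pan-epithelial mean as a covariate 0, with all 9 still lower and a median of -0.57. Cidea, a lipid droplet protein, and Cox8b, a respiratory chain subunit, differed by -0.62 ± 0.20 and -0.63 ± 0.25.

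Of 13 fatty acid oxidation and lipolysis genes, 12 were lower and 6 reached an unadjusted p under 0.05, with a median of -0.37, while 3 did so without animal 3 and 0 without animal 5 or without animals 7, 8 and 9. With the pan-epithelial mean as a covariate it was also 0, with 9 of 13 lower and a median of -0.13. Acadm, a mitochondrial acyl-CoA dehydrogenase, differed by -0.44 ± 0.14 and Ppara, a nuclear receptor for fatty acids, by -0.81 ± 0.28, both with overlap through animal 10. All 18 genes of mitochondrial complexes I to IV were lower, by a median of -0.22, with 2 at an unadjusted p under 0.05, Cyc1 and Ndufv1. Without animal 5, among others, that count was 0. It was 13 without animal 6 and 15 without animal 10, where 6.83% and 9.34% of all genes were lower at that p. With the pan-epithelial mean as a covariate it was 0 in limma, with 14 of 18 lower and a median of -0.03. White adipocyte genes were also mostly lower, 11 of 12 tested, with a median of -0.24. At an unadjusted p under 0.05 were 2 of them, and 1 was without overlap. Over all genes tested these shares were 7.35% and 2.65%. Adipoq, also on that list, differed by -0.13 ± 0.09. Of 9 skeletal muscle genes 8 were higher, with a median of 0.53 and 0 at an unadjusted p under 0.05 in limma, and Ckm, muscle creatine kinase, was 7.14 to 9.19 against 6.80 to 7.57.

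Immediate early genes, which respond within minutes to stimuli, were divided, with 7 of 14 higher and 7 lower. Those at an unadjusted p under 0.05 were 4, all lower, and without animal 6 they were 2. Nr4a1, an orphan nuclear receptor, was 8.65 to 9.62 with a median of 9.19 against 10.03, 10.64 and 10.02. Its difference was -1.14 ± 0.24, with the widest gap on the lower side, -0.39. Dusp1, a MAP kinase phosphatase, was 9.77 to 11.19 with a median of 10.52 against 11.30, 11.56 and 11.68, without overlap, a difference of -0.92 ± 0.26. Btg2 and Zfp36 differed by -0.34 ± 0.12 and -0.37 ± 0.16, with overlap.

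The 24 genes with the smallest p, named whether or not they passed, held 17 lower and 7 higher with a later tumor, and 22 of them did not overlap. Picking by smallest p itself favours genes that separate. Of all genes tested, 2.05% were higher and 2.65% lower without overlap. The limma adjusted p-values of the 24 genes were 0.347 apart from Csn1s1. Besides the genes above, the higher ones were Igfals, which binds insulin-like growth factors in serum (0.55 ± 0.11), and Vamp7, a vesicle fusion protein (0.33 ± 0.07). Hpgd, the enzyme that inactivates prostaglandins, was 7.22 to 7.62 with a median of 7.54 against 7.85, 8.16 and 8.24, a difference of -0.62 ± 0.11. Clcf1, a cytokine of the interleukin 6 family, was 7.36 to 7.53 with a median of 7.40 against 7.71, 7.79 and 8.08, a difference of -0.45 ± 0.08. Genes of signalling and growth control among them were Tob2, an antiproliferative protein (-0.67 ± 0.14), Dcun1d3, a regulator of cullin neddylation (-0.62 ± 0.12), Nfkbid, a nuclear inhibitor of NF-kappaB (-0.38 ± 0.08) and Akap2, a protein kinase A anchor (-0.49 ± 0.09). Genes expressed in blood cells were Myo1g, a myosin (-0.43 ± 0.09), and Arhgap45 (-0.50 ± 0.11). The others were Pink1, a kinase of mitochondrial quality control (-0.43 ± 0.10), Galnt12, an enzyme of mucin-type glycosylation (-0.38 ± 0.08), Ccdc88c (-0.37 ± 0.07), Dapl1 (-0.56 ± 0.11), Resf1 (-0.40 ± 0.08) and Ctcflos (-0.44 ± 0.10). Bmp6, a bone morphogenetic protein, was not among the 24 but had one of the 5 widest gaps on the lower side, with Nr4a1, Dcun1d3, Tob2 and Hpgd, and differed by -0.66 ± 0.17.

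The tamoxifen animals, which share no sample with the placebo animals, gave the same comparison with 3 animals with a later tumor and 7 without. Of the 24 genes, 23 had the same sign there, with Ctcflos as the exception. Replicate numbers were partly aligned with the outcome across treatments. Numbers 1, 2 and 10 had a later tumor in both, and numbers 3, 5 and 6 had none in either. Numbers 4, 7, 8 and 9 had a later tumor only among placebo animals. The labels give no batch, and the part of these numbers in the shared signs, here and below, was not tested. Csn1s1 was 7.27 to 10.64 in tamoxifen animals with a later tumor and 6.80 to 8.22 in those without, a difference of 1.94 ± 0.66 with overlapping groups. Csn2 differed by 2.99 ± 1.13, also with overlap. Tgfa was 8.22 to 8.41 against 7.67 to 8.00, without overlap, a difference of 0.43 ± 0.31.

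**Figure D4:**
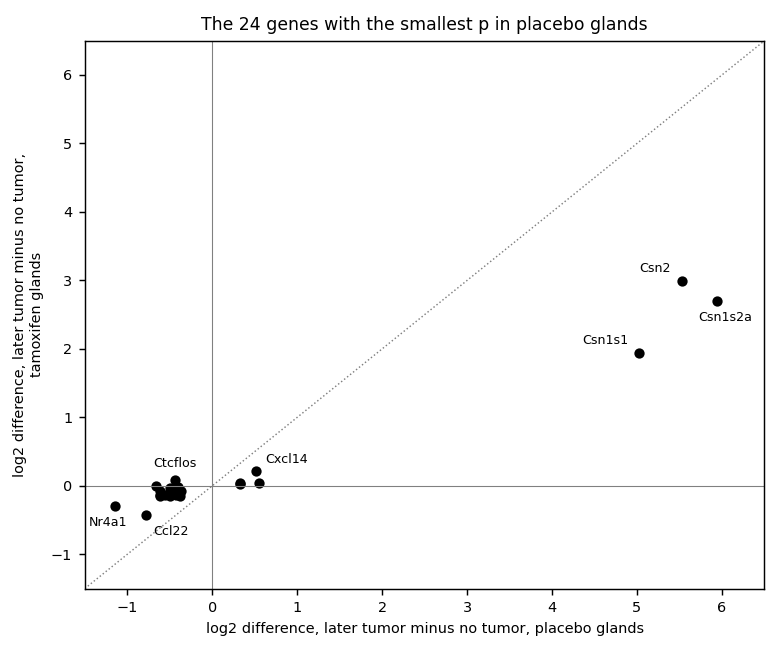
Log2 difference between animals with and without a later tumor in placebo glands (x axis) and in tamoxifen glands (y axis) for the 24 genes with the smallest p in placebo glands; the dotted line marks equal differences and each point is 1 gene. The 3 caseins lay far out on both axes, and 23 of 24 genes had the same sign.

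Among the 576 genes without overlap in placebo animals, 428 (74.3%) had the same sign in tamoxifen animals, against 6941 of all 12261 genes tested (56.6%). The interaction of outcome and treatment was tested in the model of 4 groups, and limma called 0 genes (0%), with 549 at an unadjusted p under 0.05 and a smallest adjusted p of 0.301. For Csn1s1 it was 3.08 ± 0.93, larger in placebo animals, with a limma adjusted p of 0.94. List medians in tamoxifen animals were 0.30 for milk genes, 0.21 for pan-epithelial, 0.25 for luminal progenitor and 0.02 for basal markers, -0.06 for T cell and 0.06 for brown adipocyte genes. Differences between the treatments in these list medians were not tested.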

How the data were processed

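Per the submitters' processing notes, the authors made the deposited values with RMA, which corrects background, normalizes between arrays and summarises probes to 1 log2 value per probe set. The RMA software and the build were not given in the sources used here. Those deposited log2 values were used unchanged.

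Of 45101 probe sets, 34958 carried 1 gene symbol in the platform table, 34754 of them updated by Entrez ID. Left out were 932 with several symbols and 9211 without any. Where a gene (18194 in all) had several probe sets, the one with the highest mean over 20 arrays was taken. Genes above 6.85, the median of all placebo values, on at least 3 of the 10 placebo arrays were tested.

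The outcomes were compared in the 10 placebo arrays with limma 3.58.1 in R 4.3.3 (lmFit, eBayes), two-sided, with Benjamini-Hochberg adjustment over all 12261 genes. A fit of 4 group means over 20 arrays gave the tamoxifen difference and the interaction. Errors are SE. The fitting step was tested on simulated data.

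Same-numbered animals of the 2 outcomes did not deviate together, with correlations of -0.13, 0.00 and -0.03. Those of the 2 treatments ran from -0.09 to 0.59, with 0.59, 0.37, 0.24 and 0.22 for numbers 6, 2, 4 and 3. Differently numbered animals were not compared in this way, so a link of these correlations to the number was not tested. The main fits paired neither, and both numbers were tried as a block as alternatives.

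The comparison, gene lists and rules were chosen with earlier results of these data known. The named genes were the 24 with the smallest p, up to 4 members by smallest p of each list described, the 5 widest gaps in each direction among genes without overlap, and 15 fixed genes (Tgfa, Egfr, Csn1s1, Csn2, Wap, Elf5, Kit, Esr1, Pgr, Krt18, Krt14, Mki67, Adipoq, Ckm and Cd3e). The 60 lists held 803 genes, of which 748 had a probe set and 653 were tested. Alternatives covered scaling, filters, probe set choice, variance models, blocks, covariates and animals left out. Leaving out animals 7 and 8 was added after seeing the data.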

Additional observations from a re-analysis of the deposited data

Results flagged for a closer look

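Single animals far from the other 6 with a later tumor were looked for in the 104 named genes and 6 list means. Chance alone gives about 1 in 20 groups such a sample. They were found for 13 genes and for the mitosis list mean. Animal 8 was highest for the mitosis list mean (2.35), Top2a (10.85), Ccnb2 (9.66), Pola1 (8.64), Rrm2 (10.79) and the chaperone Pdia6 (11.39). Animal 10 was highest for Acadvl (13.45), Cyc1 (12.98) and Ndufv1 (12.73). Animal 2 was lowest for Csn2 (9.23), and animal 4 was lowest for Krt18 (10.75) and highest for Clcf1 (7.53). Animal 7 was highest for Cnn1 (9.19) and lowest for Cd79a (8.73).

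Oxtr moved in opposite directions in the 2 treatments. In placebo animals all 7 with a later tumor (9.03 to 10.03) were above the 3 without (8.08 to 8.88), while in tamoxifen animals all 3 with a later tumor (8.66 to 8.81) were below the 7 without (8.86 to 11.24). The interaction was 2.40 ± 0.50, with a limma adjusted p of 0.56 over all genes tested. These values are of 1 probe set, and a second Oxtr probe set gave a placebo difference of 0.21.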

How the results depend on the processing

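The count of genes called between the outcomes was 0 under scaling, filter, probe set, trend and array weight alternatives. It was 1, Csn1s1, with 4 group means over all 20 arrays, with a variance per outcome group (limma adjusted p 0.0403), with the outcome replicate number as a block (difference 4.81, adjusted p 0.0137) and with numbers 1 to 5 against 6 to 10 as a block (4.67, 0.00867). Leaving out each animal gave 0 to 3: 3 without animal 2 (Csn1s1, Csn2 and Csn1s2a) and 1 without animal 4 (Csn1s1, 5.27, 0.0483). The cause was not tested.

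At an unadjusted p under 0.05, 779 genes were higher with 4 group means and 287 with the pan-epithelial covariate, against 202 to 553 with each animal left out, lowest without animal 5 and 310 without animal 6. Lower genes numbered 577 with the replicate block, 313 with the pan-epithelial covariate and 476 without animals 7, 8 and 9, and 493 (without animal 3) to 1145 (without animal 10) with each animal left out. Genes higher without overlap numbered 492 without animals 7, 8 and 9, 384 without animals 7 and 8, and 273 to 839 with each animal left out. Genes lower without overlap were 346 to 740. Fewer animals make overlap rarer by construction, and leaving out animal 2, 3, 5, 6 or 10 moved at least 1 of these counts by over 1.5 times.

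Called interactions numbered 1 with array weights (Gng12), 2 with the treatment replicate number as a block (Ccl8 and Pgr), and 0 to 3 with each animal left out, 3 being without tamoxifen animal 3 (Akr1cl, Oxtr and Zfp469).

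Differences of named genes kept their sign except as follows. Egfr was 0.0044 with quantile normalization, 0.12 as the mean of its probe sets, 0.0027 with array weights, 0.018 without animals 7 and 8, and -0.046 (without animal 9) to 0.014 (without animal 8) with each animal left out. Nrg4 was 0.10 with the replicate block, 0.036 with the skeletal muscle covariate, 0.10 without animals 7, 8 and 9, 0.047 without animals 7 and 8, and -0.20 (without animal 2) to 0.054 (without animal 6) with each animal left out. With the pan-epithelial covariate, Cldn7 was -0.094, Kcnk1 -0.062, Serpinb5 -0.0038, Egfr 0.036, Elf5 -0.076, Kit -0.0098, Krt14 -0.096, Mki67 -0.77, Adipoq 0.069, Gata3 -0.16, Stat5a -0.021, Trp63 -0.16, Wnt4 -0.17, Nrg4 0.27, Erbb3 -0.21, Erbb2 -0.15, Socs5 -0.080, Phlda1 -0.38, Ccnd1 -0.46, Cldn3 -0.29, Cldn8 -0.15, Top2a -0.51, Ccnb2 -0.58, Pola1 -0.13, Mcm6 -0.65, Rrm2 -0.65 and Col16a1 -0.013. Others shrank without turning, to the lowest of all settings under that covariate: Plet1 to 0.046, Tgfa to 0.24, Epcam to 0.17 and Wfdc18 to 0.59. Adjusted p-values of these were above 0.8 where the covariate was used.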
